A study of Homo sapiens with 6 samples.

Results

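The enzymes described here write and erase chemical marks on histones and on DNA. They were taken by symbol: the KDM, HDAC, SIRT, KMT2 and KMT5, KAT, DNMT, TET, EHMT, SETD, SUV39H and EZH genes together with JMJD6, CREBBP and EP300. The rule used no measured value. It found 75 genes among the 35035 genes of the table, and all 75 had enough reads to be tested. Their RNA was measured in 6 libraries of HK-2, an immortalised line of human proximal tubule cells labelled wild type. The libraries came from cells transfected with a plasmid that overexpresses circAASS, a circular RNA (circAASS libraries 1 to 3), or with the empty vector (vector libraries 1 to 3). Cells of both groups had been kept in 1% oxygen for 24 h and then returned to normal oxygen for 12 h, so every value below is from reoxygenated cells and none from cells never deprived of oxygen. The series' design text instead dates the RNA to 24 h after the treatment. Transfection was with plasmids, and whether the 3 repeats were separate cultures is not given in the sources used here; the p-values measure only the spread between these libraries, which may be technical.

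Histone methyltransferases and DNA methyltransferases take their methyl group from S-adenosylmethionine, and acetyltransferases take their acetyl group from acetyl-CoA. The JmjC demethylases and the TET enzymes need oxygen, iron and 2-oxoglutarate. The sirtuins remove acetyl and other acyl groups with NAD, whereas the zinc-dependent HDACs use none of these cofactors. Several JmjC demethylase genes, KDM3A and KDM4B among them, are known targets of the hypoxia-inducible factors. In the kidney tubule these enzymes are studied for how oxygen loss and its return alter gene regulation and repair.

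The libraries held 47966937, 58179563 and 47384879 reads in the circAASS group and 45148425, 51014541 and 52470055 reads in the vector group. The deposited values are RPKM, reads scaled to gene length and library size, which allow levels to be compared between genes. Of 19 markers of kidney epithelium in the table, 10 were above 1 RPKM; their summed level was 413 to 461 RPKM in circAASS libraries and 375 to 391 RPKM in vector libraries. The list moved both ways. PAX8 (0.83), KRT18 (0.50), KRT7 (0.48) and KRT8 (0.30) were higher with circAASS on the log2 scale, and CDH6 (-1.37), SLC5A2 (-0.93), GGT1 (-0.30) and EPCAM (-0.21) were lower. The mature proximal tubule genes LRP2, CUBN, AQP1 and SLC34A1 were near 0. Marker sums did not exceed 4.46 RPKM for fibroblasts, 0.10 RPKM for endothelium and 0.51 RPKM for blood in any library. The part of these marker levels in the results was not tested. In bulk RNA, fewer cells of a type and less RNA per cell cannot be told apart. The libraries of each group differed by gene length. Of 26 members with more than 10 kb of exon sequence, circAASS library 2 lay below the mean of the other circAASS libraries for 24, by a median of 0.17 on the log2 scale, and 68.1% of 1082 long genes at or above 1 RPKM did the same. The library circAASS 1 lay below for 3 of the 26 and circAASS 3 for 8. In the vector group, library 2 lay below for 1 of the 26, with a median of 0.08, library 1 for 21 and library 3 for 20. Among the 49 shorter members circAASS library 2 lay below for 24 and vector library 2 for 20.

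With circAASS, 15 of the 75 enzymes were higher, 10 were lower and 50 did not pass the test, which was limma on log2(RPKM + 0.1) with p-values adjusted over all 19350 tested genes at a threshold of 0.05. That is 33.3% of the members, and 32.3% of all tested genes passed, 16.0% higher and 16.3% lower, so the share of changed enzymes was near that of all genes. The median log2 difference was 0.01 for the members and -0.01 for all tested genes. With scaling by library size alone, 8 members were higher and 12 lower, so the balance of directions depends on the scaling. Without circAASS library 1, 2 or 3, the counts were 13 higher and 13 lower, 15 and 7, or 9 and 7. Without vector library 1, 2 or 3, they were 11 and 8, 10 and 5, or 9 and 6.

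On the log2(RPKM + 0.1) scale the changes were small. SIRT3 had the largest there, -0.79, and no member reached a 2-fold change, whereas 596 of the changed genes (9.55%) did. The added 0.1 shrinks the changes of members under 1 RPKM: SIRT3 was -1.03 with voom weights on recovered reads and -0.27 with a pseudocount of 1 RPKM, where SETD1A was 0.53. The size of the change of KDM5D also depended on the pseudocount. Among changed members the median size was 0.31, against 0.47 for all changed genes. Here and below, overlap of levels is judged on deposited RPKM, before the scaling used in the test, and can differ after it. The groups did not overlap for 37 members (49.3%), a share that was 47.5% of all tested genes. Of these 37, 13 did not pass the test. Of the 25 calls, 13 held in every alternative setting that tested the gene and 12 were lost in at least 1. The 13 were the rises of SETD1A, JMJD6, SUV39H2, SETD3, DNMT3B, SIRT1, KMT5A and KDM4A and the falls of KMT5B, KMT5C, DNMT3A, HDAC6 and SIRT5.

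**Figure D1:**
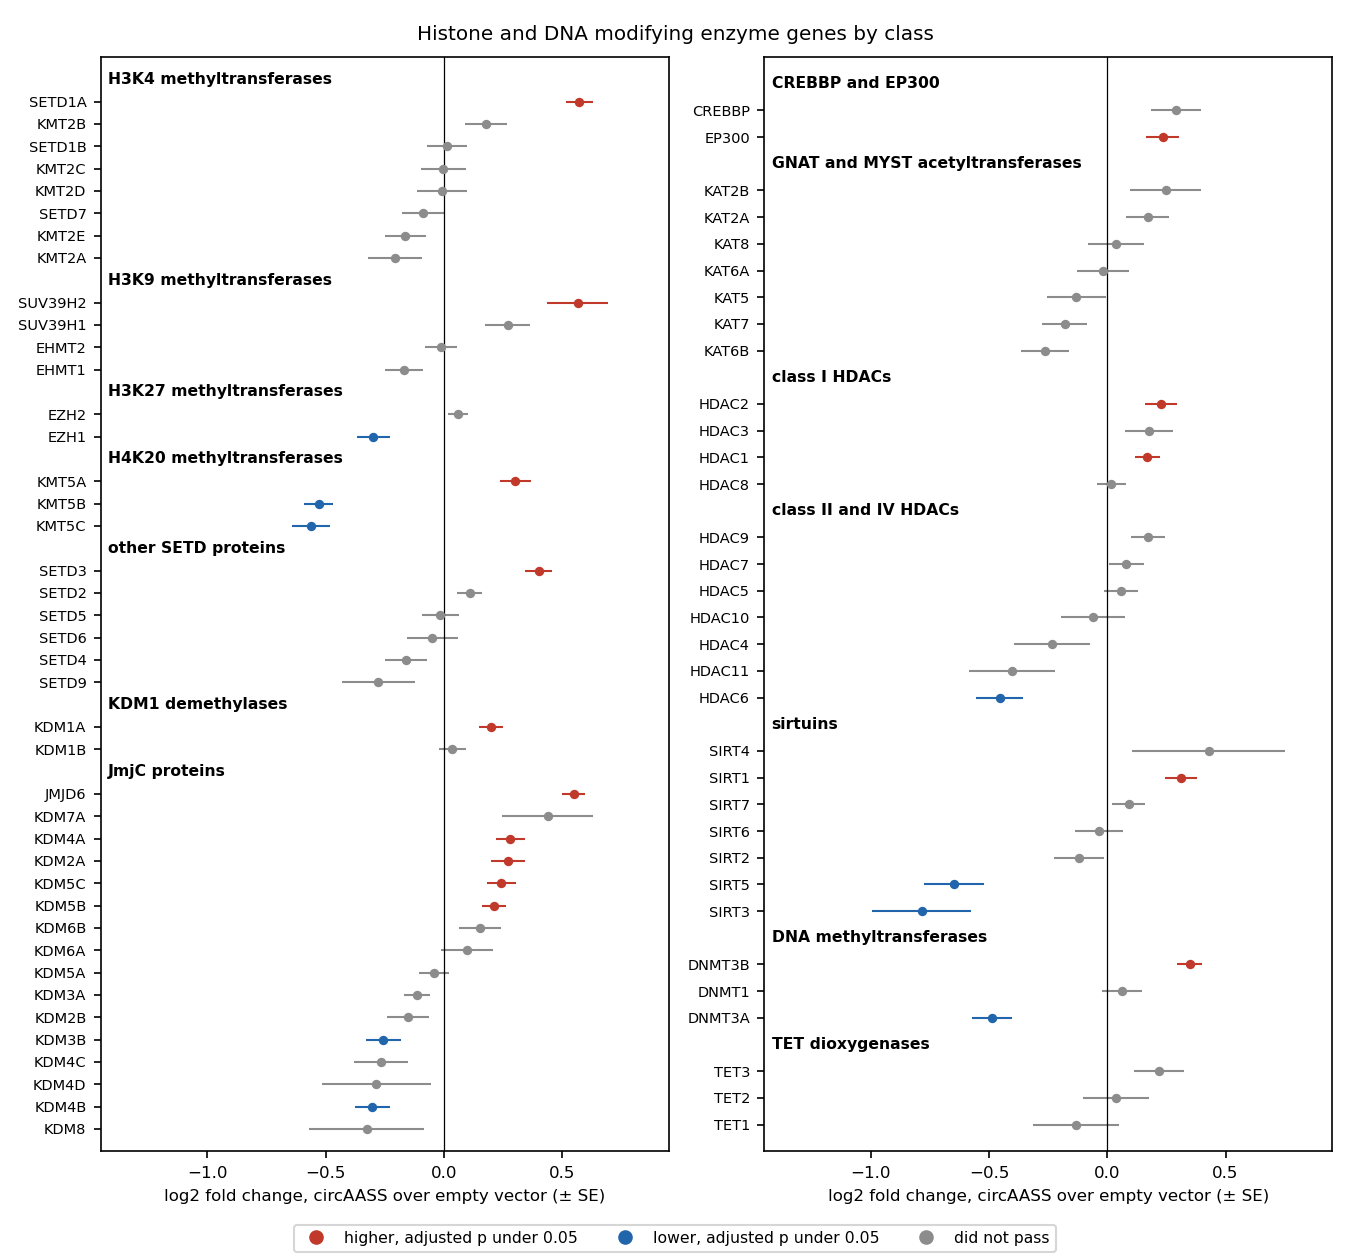
Log2 fold change, circAASS over vector, on the log2(RPKM + 0.1) scale for the enzymes by class, without KDM5D, with bars of 1 SE either side; red passed as higher, blue as lower and grey did not pass. Changed genes run between -0.79 for SIRT3 and 0.57 for SETD1A, and KMT5A lies to the right of 0 and KMT5B and KMT5C to the left.

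The clearest shift was among the enzymes of histone H4 lysine 20, where KMT5A rose and both of its partners fell. KMT5A places the first methyl group on this lysine, and KMT5B and KMT5C add further ones. The promoters of these 3 genes and of KDM4B, a hypoxia-inducible demethylase described further on, are printed as the windows RefSeq gives on GRCh38.p14, with 250 bases before and 50 after the start, 5′ to 3′ along the gene. Capitals mark the core letters bound by hypoxia-inducible factors, ACGTG or GCGTG on either strand (CACGT and CACGC where read on the other), with overlapping matches merged. KMT5A lies at chr12:123383882-123384181 on the plus strand, KMT5B at chr11:68213599-68213898 on the minus strand, KMT5C at chr19:55339626-55339925 on the plus strand and KDM4B at chr19:4968863-4969162 on the plus strand.
KMT5A: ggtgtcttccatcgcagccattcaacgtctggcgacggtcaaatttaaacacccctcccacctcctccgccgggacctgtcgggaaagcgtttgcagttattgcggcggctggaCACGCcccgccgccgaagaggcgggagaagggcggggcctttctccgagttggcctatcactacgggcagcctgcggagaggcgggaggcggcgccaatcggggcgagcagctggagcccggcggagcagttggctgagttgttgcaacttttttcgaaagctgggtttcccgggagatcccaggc
KMT5B: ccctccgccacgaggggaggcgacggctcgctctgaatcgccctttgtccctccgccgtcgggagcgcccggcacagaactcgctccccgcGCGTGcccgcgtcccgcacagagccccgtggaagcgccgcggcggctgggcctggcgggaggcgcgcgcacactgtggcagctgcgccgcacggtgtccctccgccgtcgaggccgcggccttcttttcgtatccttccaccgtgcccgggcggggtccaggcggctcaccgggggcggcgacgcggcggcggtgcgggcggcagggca
KMT5C: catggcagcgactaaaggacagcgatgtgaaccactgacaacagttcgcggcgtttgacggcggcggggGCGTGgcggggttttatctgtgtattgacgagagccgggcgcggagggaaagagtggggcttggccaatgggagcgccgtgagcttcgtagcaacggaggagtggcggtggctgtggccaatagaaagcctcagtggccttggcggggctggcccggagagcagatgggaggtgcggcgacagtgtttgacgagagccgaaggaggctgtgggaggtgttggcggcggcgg
KDM4B: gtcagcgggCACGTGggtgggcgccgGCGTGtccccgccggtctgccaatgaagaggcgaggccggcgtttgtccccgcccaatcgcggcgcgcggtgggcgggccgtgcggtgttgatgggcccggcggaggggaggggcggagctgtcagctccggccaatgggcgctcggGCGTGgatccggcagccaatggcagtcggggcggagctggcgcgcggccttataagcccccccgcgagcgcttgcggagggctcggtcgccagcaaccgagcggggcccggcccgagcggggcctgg

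The core letters occur once in each KMT5 window and 4 times in the KDM4B window, counting overlaps and both strands. A window was found for 69 of the 75 members. The letters are in 46 of these (66.7%), in 9 of 14 windows of higher members (64.3%) and in 5 of 10 of lower ones. They are in 32 of 45 windows of members that did not pass (71.1%), and in 48.4% of 27305 windows of all genes. The share was highest in the members that did not pass, and differences between these sets were not tested. A match in a window is a description of its letters and not of binding.

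KMT5A (chr12:123383773-123409358, GRCh38) had 30.9, 27.3 and 29.7 RPKM in circAASS libraries, against 25.4, 25.8 and 23.6 RPKM in vector libraries. Every circAASS library exceeded every vector library, and the difference was 0.30 ± 0.07 (SE; log2, adjusted p = 0.0129). KMT5B (chr11:68154863-68213828) had 3.71, 3.77 and 3.63 RPKM with circAASS and 5.76, 5.69 and 5.55 RPKM with vector. KMT5C (chr19:55339853-55348120) had 2.14, 2.21 and 2.09 RPKM with circAASS and 3.62, 3.28 and 3.26 RPKM with vector. The libraries of each group lay close together for both genes and the groups stood well apart. KMT5B differed by -0.53 ± 0.06 (adjusted p = 0.00117) and KMT5C by -0.56 ± 0.08 (adjusted p = 0.00253). KMT5A is the most abundant of the 3 genes. Their summed deposited level, before scaling, was 35.1 ± 1.75 RPKM with circAASS and 34.0 ± 1.34 RPKM with vector (SD, n = 3). That unscaled difference is less than the spread between libraries. The scaling factors, 0.958 to 0.996 for circAASS and 1.018 to 1.036 for vector, would widen it. The scaled sum was not tested, so an unchanged total is not shown.

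Of the 8 methyltransferases of histone H3 lysine 4, SETD1A alone passed the test. SETD1A, a catalytic subunit of a COMPASS complex that marks active promoters, had 12.6, 11.7 and 12.2 RPKM with circAASS, against 8.64, 8.68 and 8.38 RPKM with vector. It lies at chr16:30957294-30984664. The groups were far apart, with a difference of 0.57 ± 0.06 (adjusted p = 0.000646). Its paralogue SETD1B had 3.94, 3.75 and 4.52 RPKM with circAASS and 4.18, 4.47 and 4.03 RPKM with vector, with overlapping groups (adjusted p = 0.919). KMT2E, the most abundant of the class and thought to lack methyltransferase activity of its own, had 16.8, 13.3 and 15.6 RPKM with circAASS, against 17.3, 18.5 and 17.8 RPKM with vector. Its groups did not overlap, but its difference of -0.16 had an adjusted p of 0.197; without circAASS library 1 this was 0.0407, and over all alternatives it was 0.0407 to 0.461. KMT2A, KMT2B, KMT2C, KMT2D and SETD7 did not pass, with adjusted p-values between 0.166 and 0.984.

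Among the 4 methyltransferases of histone H3 lysine 9, which marks heterochromatin, SUV39H2 rose. It lies at chr10:14878820-14904315 and had 3.54, 3.39 and 3.65 RPKM with circAASS and 2.12, 3.05 and 2.33 RPKM with vector, a difference of 0.57 ± 0.13 (adjusted p = 0.0143). The circAASS libraries were close to each other and vector library 2 lay nearest to them. SUV39H1, its paralogue, had 3.42, 3.29 and 3.88 RPKM with circAASS, against 2.72, 3.14 and 3.34 RPKM with vector (adjusted p = 0.0642, and 0.0395 with voom weights). Other genes cover 20.3% of its exon bases on the opposite strand, and strand use in the counting is not given, so its reads are uncertain. EHMT1 and EHMT2, which work as a pair on the same lysine in active regions, had differences of -0.17 (adjusted p = 0.153, and 0.0314 with voom weights) and -0.01 (adjusted p = 0.905).

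EZH2 and EZH1 are the alternative catalytic subunits of Polycomb repressive complex PRC2, which methylates histone H3 lysine 27. EZH1 (chr17:42700275-42745049) had 3.30, 3.35 and 3.41 RPKM with circAASS and 4.03, 4.61 and 4.46 RPKM with vector. It fell by 0.30 ± 0.07 (adjusted p = 0.0165), a call lost without circAASS library 3 or vector library 2 or 3 (adjusted p of 0.0506, 0.0675 and 0.0572). EZH2 was the more abundant and its groups overlapped, with 38.7, 39.8 and 41.1 RPKM with circAASS and 39.5, 41.2 and 40 RPKM with vector (adjusted p = 0.325).

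Of the 6 remaining SETD proteins, SETD3 rose. SETD3 is a histidine methyltransferase of actin, so its best known substrate is not a histone. It lies at chr14:99397746-99480889 and had 12.5, 12.7 and 12.0 RPKM with circAASS and 10.1, 9.86 and 9.51 RPKM with vector, a difference of 0.40 ± 0.06 (adjusted p = 0.00254). The groups did not overlap. SETD2, the enzyme that trimethylates histone H3 lysine 36, was as abundant, at 12.3, 11.9 and 13.1 RPKM with circAASS and 11.6, 12.2 and 12.7 RPKM with vector (adjusted p = 0.158). SETD4, SETD5, SETD6 and SETD9 did not pass, with adjusted p-values between 0.211 and 0.903.

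**Figure D2:**
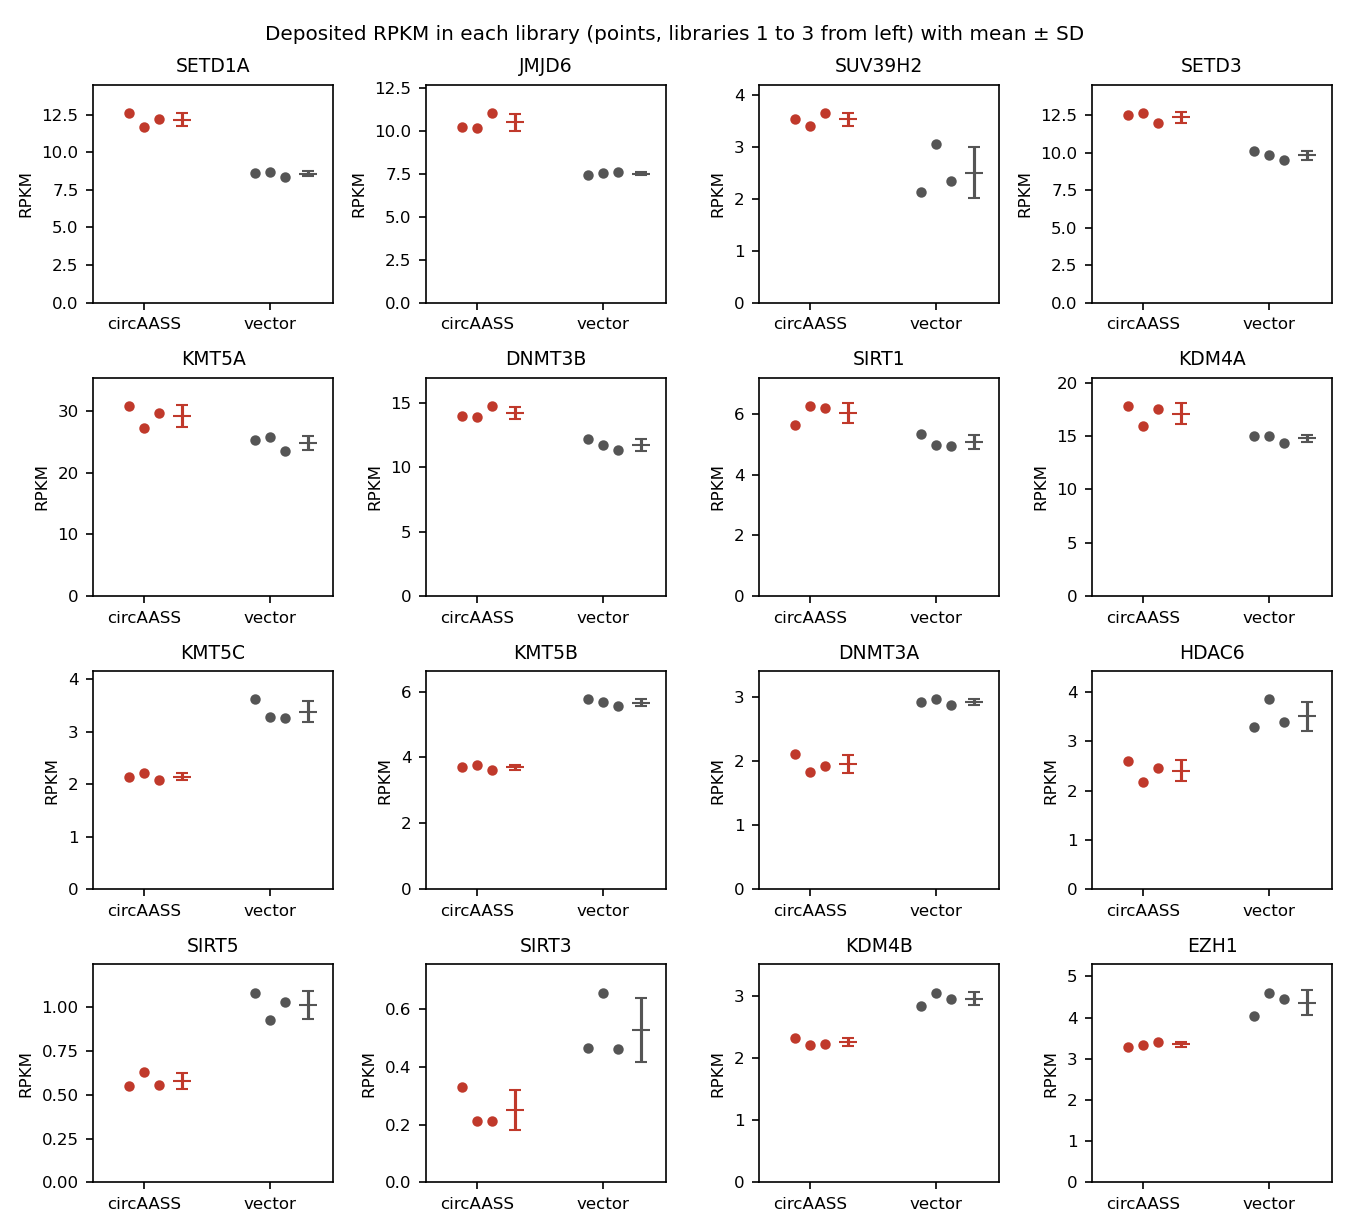
Deposited RPKM in each library for 16 changed members, on linear axes starting at 0, with circAASS libraries (red) left of vector libraries (grey) and the mean ± SD beside the points. The groups do not overlap in any panel; they are far apart for SETD1A and KMT5B, and closer for KDM4A and SIRT1.

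Among the demethylases, the amine oxidase KDM1A, which removes methyl groups from histone H3 lysine 4 within corepressor complexes, rose slightly. It had 42.8, 41.3 and 43.9 RPKM with circAASS, against 39.7, 40.04 and 37.5 RPKM with vector, and differed by 0.20 ± 0.05 (adjusted p = 0.0212). Its groups did not overlap, but the call was lost without circAASS library 3 or vector library 3. The call was also lost with scaling by library size alone and without trend and robust estimation (adjusted p up to 0.0864 over all alternatives). KDM1B had 8.31, 8.84 and 8.58 RPKM with circAASS and 9.09, 8.85 and 8.46 RPKM with vector, and its groups overlapped (adjusted p = 0.665).

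Of the 17 JmjC proteins, 5 rose, 3 fell and 9 did not pass. That is 47.1% changed, beside 32.3% of all tested genes, and the difference was not tested. JMJD6 changed most clearly. It is an oxygenase that hydroxylates lysines of splicing factors, and lies at chr17:76712832-76726799. It had 10.2, 10.2 and 11.0 RPKM with circAASS, against 7.41, 7.53 and 7.59 RPKM with vector, a difference of 0.55 ± 0.05 (adjusted p = 0.000474) with a wide gap between the groups. KDM4A, which demethylates histone H3 lysines 9 and 36, had 17.8, 16.0 and 17.6 RPKM with circAASS and 15.01, 14.97 and 14.4 RPKM with vector. Its groups did not overlap and it differed by 0.28 ± 0.06 (adjusted p = 0.0112), but other genes cover 40.2% of its exon bases on its own strand, which leaves its reads uncertain.

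The other 3 that rose did so by less. KDM2A, a histone H3 lysine 36 demethylase, had 5.68, 5.27 and 6.32 RPKM with circAASS and 4.92, 4.997 and 5.03 RPKM with vector (0.27 ± 0.07, adjusted p = 0.0236). The histone H3 lysine 4 demethylase KDM5C had 10.8, 10.3 and 11.8 RPKM with circAASS and 9.89, 9.96 and 9.34 RPKM with vector (0.24 ± 0.06, adjusted p = 0.0218). Its relative KDM5B had 7.38, 7.72 and 8.12 RPKM with circAASS and 6.93, 6.92 and 7.19 RPKM with vector (0.21 ± 0.05, adjusted p = 0.019). None of these 3 overlapped between groups, but each was lost with scaling by library size alone. KDM2A was also lost without circAASS library 1 or 3 or any vector library, KDM5C without circAASS library 3 or vector library 3, and KDM5B without circAASS library 3 or vector library 1 or 2, with adjusted p-values up to 0.0884, 0.0875 and 0.116 over all alternatives. Further settings that lost KDM5C were those without trend and robust estimation and with the repeat number as a block.

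The JmjC genes that fell were KDM4B, KDM3B and KDM5D. The values of KDM5D, which is Y-linked, are not given, and its call did not hold in every alternative. KDM4B, a histone H3 lysine 9 demethylase at chr19:4969113-5153595, had 2.33, 2.21 and 2.22 RPKM with circAASS, against 2.84, 3.05 and 2.96 RPKM with vector. It differed by -0.30 ± 0.07 (adjusted p = 0.0198) and was lost without circAASS library 3 or vector library 2 or 3 (adjusted p of 0.0655, 0.0785 and 0.0589). The call of KDM4B was also lost with the repeat number as a block. KDM3B, another histone H3 lysine 9 demethylase, at chr5:138352596-138437028, had 11.0, 9.85 and 11.9 RPKM with circAASS and 13.2, 14.4 and 13.4 RPKM with vector. It fell by 0.26 ± 0.07 (adjusted p = 0.0332), a call lost without circAASS library 2 or any vector library. KDM3B was also lost with no filter on low values, without trend and robust estimation, and with the repeat number as a block (adjusted p up to 0.119 over all alternatives). For both genes every circAASS library was below every vector library.

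Of the JmjC genes listed here as induced by hypoxia, KDM4B was thus lower, and KDM3A, KDM4C, KDM2B and KDM6B did not pass. That list is not complete, and some JmjC genes outside it, KDM5B among them, rose. KDM3A had 4.58, 4.67 and 4.66 RPKM with circAASS and 5.18, 5.32 and 5.37 RPKM with vector. These groups did not overlap, yet the difference was -0.11 ± 0.06 (adjusted p = 0.155), and under library-size scaling it did pass (-0.19, adjusted p = 0.046; 0.046 to 0.33 over all alternatives). KDM4C had a difference of -0.27 (adjusted p = 0.116, and 0.0159 with voom weights), KDM2B of -0.15 (adjusted p = 0.222) and KDM6B of 0.15 (adjusted p = 0.232). KDM4D, KDM5A, KDM6A, KDM7A and KDM8 did not pass either.

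Among the acetyltransferases, EP300 alone passed the test. EP300 and CREBBP are paralogous coactivators that acetylate many histone lysines. EP300 (chr22:41091786-41180079) had 5.91, 5.46 and 6.26 RPKM with circAASS, against 4.96, 5.40 and 5.36 RPKM with vector, a difference of 0.23 ± 0.07 (adjusted p = 0.0353). The nearest libraries of the groups were almost level, and the call was lost in 10 of 15 alternatives, without circAASS library 1 or 3 or any vector library among them (adjusted p up to 0.136). CREBBP had 9.58, 7.39 and 9.46 RPKM with circAASS and 7.30, 8.03 and 7.21 RPKM with vector, and circAASS library 2 lay among the vector libraries. Its difference was 0.29 ± 0.11 (adjusted p = 0.073), and without that library 0.41 (adjusted p = 0.00978; 0.00978 to 0.185 over all alternatives). CREBBP has over 10 kb of exon sequence, the length range in which that library lay low. HDAC6, DNMT3A and KDM4B, which fell, are also that long. In each of them circAASS library 2 was the lowest of its group and vector library 2 the highest of its group. EP300, KDM2A and HDAC2, which rose, are that long too. The part of exon length in these results was not tested.

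Of the 7 GNAT and MYST acetyltransferases 0 passed the main limma test, and KAT6B alone had an unadjusted p under 0.05. Both KAT6B and KAT7 passed with voom weights on recovered reads and without circAASS library 1. KAT6B also passed with scaling by library size alone. KAT8, the histone H4 lysine 16 acetyltransferase and the most abundant, had 11.2, 8.38 and 9.88 RPKM with circAASS and 10.9, 9.91 and 9.26 RPKM with vector (adjusted p = 0.838). KAT6B came nearest, with 5.57, 4.29 and 4.76 RPKM with circAASS and 6.17, 6.23 and 6.03 RPKM with vector (-0.26, adjusted p = 0.0829). KAT2A, KAT2B, KAT5, KAT6A and KAT7 had adjusted p-values between 0.185 and 0.913. Genes on the opposite strand cover 38.6% of the exon bases of KAT5 and 21.4% of those of SETD6, whose reads are uncertain.

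Of the class I deacetylases, the catalytic subunits of nuclear corepressor complexes, HDAC1 and HDAC2 rose slightly and HDAC3 and HDAC8 did not pass. HDAC1 was the most abundant member of all, with 81.0, 91.1 and 85.3 RPKM with circAASS and 81.4, 79.5 and 79.6 RPKM with vector. Its groups overlapped in deposited RPKM, and its difference after scaling was 0.17 ± 0.05 (adjusted p = 0.0464). This call was lost in 10 of 15 alternatives, without circAASS library 2 or 3 or any vector library among them (adjusted p up to 0.201). HDAC2 had 26.1, 29.1 and 25.7 RPKM with circAASS and 25.02, 23.0 and 24.6 RPKM with vector, with a narrow gap between groups (0.23 ± 0.07, adjusted p = 0.0361). Its call was lost in 8 alternatives, without circAASS library 1 or 2 or vector library 2 or 3 among them (adjusted p up to 0.107). HDAC3 had an adjusted p of 0.232, and 0.0175 without circAASS library 1, and HDAC8 of 0.861.

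HDAC6 was the one class II or IV deacetylase of 7 that passed, and it fell. It acts in the cytoplasm, mainly on tubulin, and lies at chrX:48801377-48824982. It had 2.60, 2.17 and 2.46 RPKM with circAASS, against 3.29, 3.85 and 3.39 RPKM with vector, a difference of -0.45 ± 0.10 (adjusted p = 0.0124) between groups that did not overlap. HDAC7, the most abundant of the class by its mean, had 3.76, 4.11 and 4.03 RPKM with circAASS and 4.21, 3.85 and 3.76 RPKM with vector (adjusted p = 0.44). HDAC4, HDAC5, HDAC9, HDAC10 and HDAC11 did not pass, though HDAC9 (adjusted p = 0.0278) and HDAC11 (adjusted p = 0.031) did with voom weights; MAPK12 covers 55.8% of the exon bases of HDAC10.

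Of the 7 sirtuins, SIRT1, a nuclear deacetylase, rose, SIRT3 and SIRT5, which act in mitochondria, fell, and the other 4 did not pass. SIRT1 (chr10:67884669-67918390) had 5.63, 6.25 and 6.18 RPKM with circAASS, against 5.34, 4.97 and 4.92 RPKM with vector, a difference of 0.31 ± 0.07 (adjusted p = 0.0113). SIRT5, which removes succinyl and related groups, lies at chr6:13574529-13615158. It had 0.551, 0.629 and 0.555 RPKM with circAASS and 1.08, 0.925 and 1.03 RPKM with vector (-0.65 ± 0.13, adjusted p = 0.00836). SIRT3, the main mitochondrial deacetylase, at chr11:215458-236931, had 0.329, 0.211 and 0.211 RPKM with circAASS and 0.464, 0.656 and 0.462 RPKM with vector (-0.79 ± 0.21, adjusted p = 0.0264).

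None of the 3 overlapped between groups, but SIRT3 was low and was lost without circAASS library 2 or 3 or vector library 2, or with no filter on low values (adjusted p up to 0.0809). SIRT4, also mitochondrial, had 0.188, 0.169 and 0.328 RPKM with circAASS and 0.145, 0.273 and 0.0624 RPKM with vector, and its groups overlapped (adjusted p = 0.346). SIRT2, SIRT6 and SIRT7 had adjusted p-values between 0.357 and 0.809. The summed deposited level of the 7 genes, before scaling, was 13.7 RPKM in both groups, and the scaling factors would set circAASS higher.

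The DNA methyltransferases that set new methylation moved in opposite directions, and the maintenance enzyme did not pass. DNMT3B (chr20:32762385-32809356) had 13.99, 13.96 and 14.8 RPKM with circAASS, against 12.2, 11.7 and 11.3 RPKM with vector (0.35 ± 0.05, adjusted p = 0.00302). DNMT3A (chr2:25227855-25342590) had 2.10, 1.82 and 1.93 RPKM with circAASS and 2.92, 2.96 and 2.87 RPKM with vector (-0.49 ± 0.09, adjusted p = 0.0053). Neither gene's groups overlapped. DNMT1, which copies methylation after replication, had 77.8, 64.5 and 71.2 RPKM with circAASS and 74.1, 73.8 and 66.9 RPKM with vector, a spread wider than the difference (adjusted p = 0.61).

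Of the 3 TET dioxygenases, which oxidise methylcytosine, 0 passed by limma and none had an unadjusted p under 0.05; TET3 passed with voom weights. TET1 had 0.0988, 0.179 and 0.107 RPKM with circAASS and 0.1502, 0.160 and 0.154 RPKM with vector (adjusted p = 0.607). TET2 had 1.09, 0.830 and 1.12 RPKM with circAASS and 1.04, 1.10 and 0.949 RPKM with vector (adjusted p = 0.865). TET3 had 2.71, 2.22 and 2.79 RPKM with circAASS and 2.22, 2.48 and 2.21 RPKM with vector. Here circAASS library 2 again lay among the vector libraries, and the adjusted p was 0.157 with it and 0.0469 without it (0.0344 to 0.335 over all alternatives).

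Ratios of related enzymes within each library do not depend on the library's scaling. Of 10 pairs, chosen after the values were seen, the groups did not overlap for 8. The smallest p that an exact permutation test of 3 against 3 libraries can give is 0.1, so these ratios are a description. KMT5A to KMT5B was 8.31, 7.23 and 8.19 with circAASS, against 4.41, 4.53 and 4.26 with vector. DNMT3B to DNMT3A was 6.65, 7.65 and 7.67 with circAASS and 4.19, 3.95 and 3.94 with vector. SIRT1 to SIRT5 was 10.2, 9.94 and 11.1 with circAASS and 4.94, 5.37 and 4.79 with vector. In all 3 pairs the more abundant gene gained on the rarer one.

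EZH2 to EZH1 was 11.7, 11.9 and 12.0 with circAASS and 9.81, 8.95 and 8.97 with vector. KDM4A to KDM4B was 7.65, 7.21 and 7.92 with circAASS and 5.29, 4.91 and 4.86 with vector. SETD1A to SETD1B was between 2.7 and 3.2 with circAASS and between 1.94 and 2.08 with vector. The groups of SUV39H2 to SUV39H1 and of KDM3A to KDM3B overlapped.

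**Figure D3:**
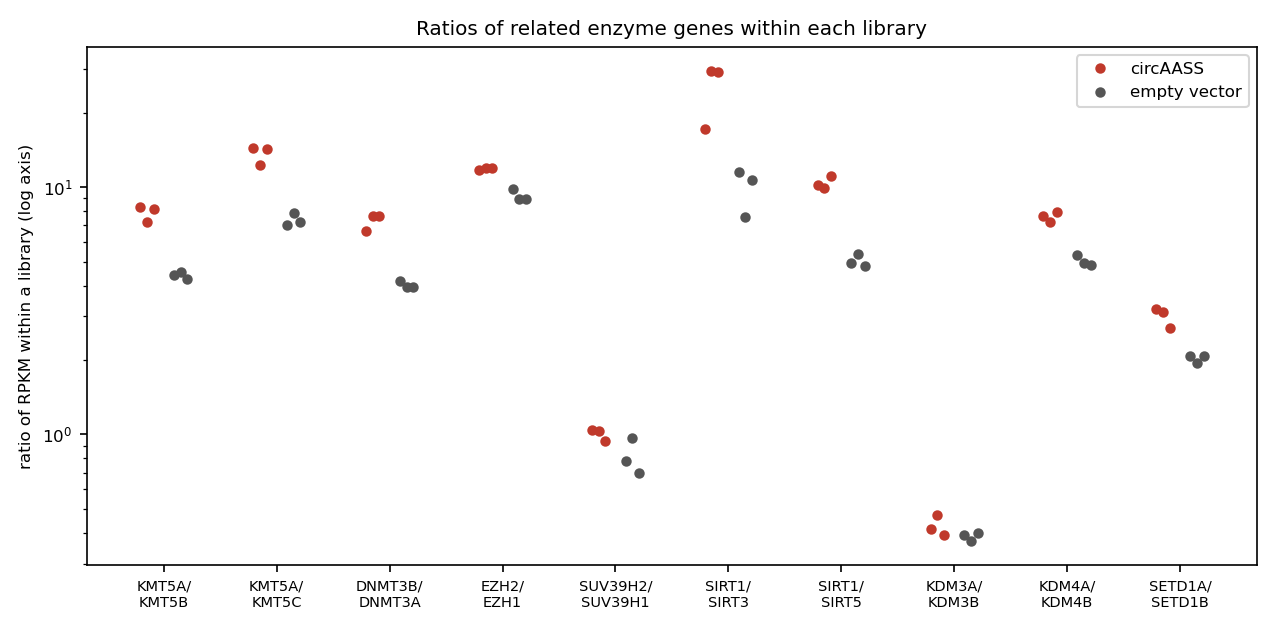
Ratio of RPKM between related enzymes within each library, on a log axis, with circAASS libraries left of vector libraries. For KMT5A to KMT5B the circAASS libraries sit at 7.23 to 8.31 and the vector libraries at 4.26 to 4.53.

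The counts varied with the level. Of 16 members with a mean of at least 10 RPKM, 9 were higher and 1 was lower. Of 47 members between 1 and 10 RPKM, 6 were higher and 6 lower, and of 12 below 1 RPKM, 0 were higher and 3 lower by limma; none of the higher ones had an unadjusted p under 0.05, and KDM7A passed as higher with voom weights. Among all tested genes the shares were 32.7% higher and 13.5% lower at 10 RPKM or more, 15.8% and 18.5% between, and 5.1% and 14.7% below 1 RPKM. The share of higher genes thus followed the level among all genes too, while the share of lower genes did not. The difference between members and all genes was not tested.

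**Figure D4:**
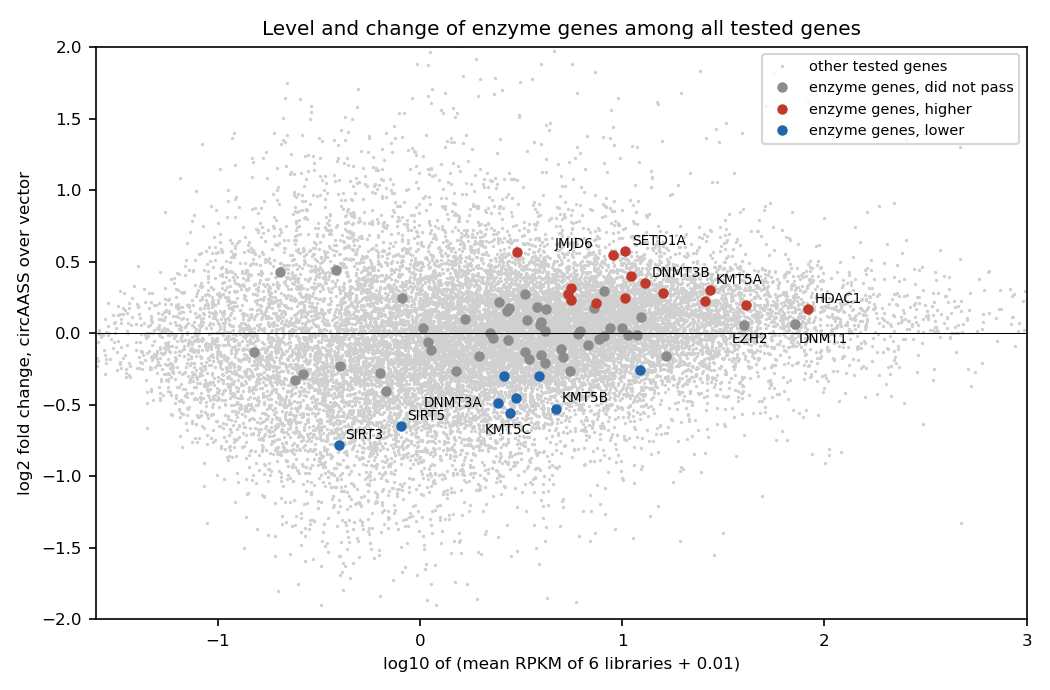
Log2 fold change, circAASS over vector, against log10 of the mean RPKM over 6 libraries (plus 0.01) for the enzymes except KDM5D (red higher, blue lower, grey did not pass) over all other tested genes (small points, cropped at -2 and 2). Members at or above 10 RPKM that changed lie above 0 except KDM3B, and the other lower members lie below 10 RPKM.

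The partners of these enzymes were read from 10 lists of related chromatin and cofactor genes. Of 196 tested genes, 43 were higher and 27 lower (35.7%), with a median difference of 0.04, beside 32.3% and -0.01 for all tested genes. With scaling by library size alone, 25 were higher and 36 lower. Of 27 Polycomb subunits, 8 rose and 3 fell. SUZ12, the scaffold of PRC2, averaged 15.4 ± 0.192 RPKM with circAASS and 12.1 ± 0.566 RPKM with vector (0.42, adjusted p = 0.00177). CBX7, a reader subunit of PRC1, averaged 0.334 ± 0.0759 RPKM with circAASS and 0.968 ± 0.160 RPKM with vector (-1.24, adjusted p = 0.00311). The ± values are SD, n = 3 each. CBX7 was under 1 RPKM in both groups. Other genes cover 17.9% of its exon bases on the opposite strand and 3.7% on its own, so its reads are uncertain.

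Of 15 genes listed with COMPASS, the complexes of SETD1A and the KMT2 enzymes, 5 rose and ASH2L fell (-0.26, adjusted p = 0.016). PAXIP1 (0.43, adjusted p = 0.00282) and NCOA6 (0.33, adjusted p = 0.0109) were among those that rose. The list also held KANSL1, KANSL2, KANSL3 and PSIP1, which are not COMPASS subunits and did not pass. Of 28 deacetylase complex subunits 7 rose, MBD2 (0.38, adjusted p = 0.00222), MTA2 (0.33, adjusted p = 0.00278) and SAP30 (0.40, adjusted p = 0.00479) with the smallest p. Of 32 acetyltransferases and complex subunits outside the rule, 5 were higher and 9 lower (43.8%, beside 32.3% of all tested genes), with a median of -0.04. KAT14 (-0.38, adjusted p = 0.00306), TAF1 (-0.38, adjusted p = 0.00346) and ING4 (-0.33, adjusted p = 0.00437) were among the lower ones.

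Of 25 bromodomain and methyl-lysine readers, 6 rose and 3 fell. BRD2, which binds acetylated histones, averaged 72.4 ± 0.611 RPKM with circAASS and 56.9 ± 1.61 RPKM with vector (0.42, adjusted p = 0.000939). L3MBTL1, a reader of methylated lysine, fell (-0.66, adjusted p = 0.00675). Of 17 DNA methylation readers and partners 5 rose, with HELLS, a chromatin remodeller needed for DNA methylation, at 0.32 (adjusted p = 0.0119), and DMAP1 fell (-0.35, adjusted p = 0.0122).

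Of 12 JmjC proteins outside the rule, 3 rose and 3 fell, with JARID2, a partner of PRC2, at 0.51 (adjusted p = 0.00161), PHF8 at 0.44 (adjusted p = 0.00916) and JMJD4 at -0.44 (adjusted p = 0.00485). Other genes cover 53.8% of JMJD4 on the opposite strand. Of 13 further methyltransferases, DOT1L rose (0.25, adjusted p = 0.039) and SETDB1, which methylates histone H3 lysine 9, fell (-0.48, adjusted p = 0.00611). Of 9 genes of arginine methylation 3 rose and 2 fell, with PRMT5 at 0.41 (adjusted p = 0.00164), its partner WDR77 at 0.49 (adjusted p = 0.00656) and PRMT1 at 0.23 (adjusted p = 0.0056). PRMT5 and WDR77 overlap other genes over more than 20% of their exon bases.

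Of 22 genes of cofactor supply, 2 rose and 4 fell (27.3%, beside 32.3% of all tested genes). The 2 that rose were IDH3A (0.26, adjusted p = 0.0205) and NADK (0.18, adjusted p = 0.0424). Genes on the opposite strand cover 38.9% of the exon bases of IDH3A, whose reads are uncertain. Of those that fell, IDH2, a mitochondrial enzyme that makes 2-oxoglutarate from isocitrate, averaged 11.6 ± 0.373 RPKM with circAASS and 19.2 ± 0.539 RPKM with vector (-0.65, adjusted p = 0.000303). NMNAT1, which makes NAD in the nucleus, averaged 1.14 ± 0.0406 RPKM with circAASS and 2.23 ± 0.0964 RPKM with vector (-0.84, adjusted p = 0.000763). D2HGDH, which turns 2-hydroxyglutarate into 2-oxoglutarate, fell too (-0.83, adjusted p = 0.0141). Of 15 targets of the hypoxia-inducible factors 4 rose and 6 fell, with VEGFA at 0.76 (adjusted p = 0.000338), ADM at 0.60 (adjusted p = 0.00138) and BHLHE40 at -0.97 (adjusted p = 0.000115), so these targets did not move in a single direction.

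**Figure D5:**
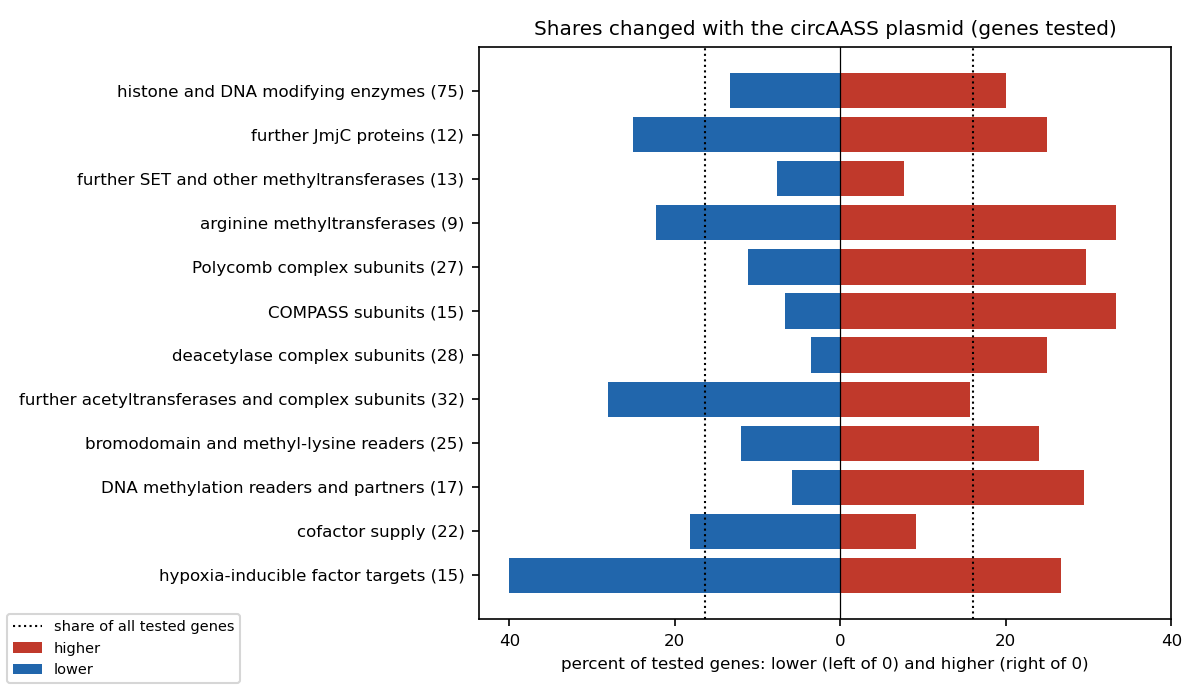
Percent of tested genes that were higher (red, right of 0) or lower (blue, left of 0) with circAASS in the members and each related list, with the number tested in brackets and dotted lines at 16.0% higher and 16.3% lower for all tested genes. All lists reach past the line for higher genes except further methyltransferases, further acetyltransferases and cofactor supply. Further JmjC proteins, arginine methyltransferases, further acetyltransferases, cofactor supply and hypoxia-inducible factor targets reach past that for lower genes.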

How the data were processed

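RNA of 6 HK-2 libraries was sequenced after a stranded mRNA kit, per the labels' protocols. The submitters' processing notes name Trimmomatic 0.36, featureCounts, Subread 1.5.1, edgeR 3.12.1 and GRCh38; neither aligner, annotation nor use of strand is given there. The authors deposited RPKM per gene. Reads were recovered from it with exon lengths of GENCODE 29: of 24697 genes with an annotated length, 22385 (90.6%) gave whole reads in all 6 libraries within 0.02 reads. Lengths were found from the values for the rest, 14 of the 75 members included, so their recovered reads are less certain. For 28 genes the name had become a date and they were left out.

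RPKM was divided by trimmed-mean factors from the recovered reads (trim 30% of ratios, 5% of levels). A gene was tested if 3 libraries reached 10 reads, scaled to the median library, and its reads summed to 15; the test was limma 3.58.1 in R 4.3.3 on log2(RPKM + 0.1), with trend and robust estimation, two-sided and adjusted by Benjamini-Hochberg over 19350 genes. Differences on this scale understate those of low genes. Printed levels, their sums and the overlap between groups are of the deposited RPKM without the factors, unlike the differences and p-values. Other tools were Python 3.11.15, numpy 2.4.6, pandas 2.3.3, scipy 1.17.1 and matplotlib 3.10.9.

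Members with the 12 largest rises and 12 largest falls were named, with all members of small classes, the most abundant of each class, hypoxia-inducible ones and up to 3 of each related list by p. KDM5B, the one changed member outside this rule, and the members not described singly were named after their values were seen. The members and lists were chosen with earlier results of these data known. Reads of genes with overlap in GENCODE 29 are uncertain. Counts of replicate libraries differed beyond counting error, so none was merged. Ratios between enzymes and the promoters printed were chosen after seeing the values. Results of a few genes of the related and marker lists are not reported here.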

Additional observations from a re-analysis of the deposited data

How the results depend on the processing

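Over 15 alternatives no changed member reversed direction. Scaling by library size alone gave 8 members higher, and 25 related genes higher; it moved the median of all genes to -0.08. No filter on low values left 2084 of all genes lower. Leaving out a library gave 15 to 26 changed members, 9 to 15 higher and 5 to 13 lower; 4203 to 5697 of all genes changed, 2013 to 2906 lower; and 38 to 63 related genes changed, 23 to 37 higher and 15 to 27 lower. The fewest members, 15, came without vector library 2 or 3. With the repeat number as a replicate block 19 members changed. Libraries sharing a number correlated at -0.005, -0.024 and 0.023 in their deviations, and those with unlike numbers at -0.045 to 0.049. These values cannot tell whether libraries sharing a number shared a culture or day. In the main test the numbers only named samples. Weights by voom on recovered reads, chosen after seeing the data, called 35 members. Tests by edgeR and DESeq2 were planned but not run, since the deposited unit is RPKM. The cause of these changes was not tested. Members under 1 RPKM rest on few reads, and 13 members not called passed in at least 1 alternative.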
